A study of Mus musculus with 4 samples.

Results

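Nuclei that carry transcripts of meningeal and perivascular fibroblasts were taken from single-nucleus RNA sequencing of mouse hippocampus. A nucleus was a member when at least 3 UMIs (unique molecular identifiers, 1 per captured transcript) came from 8 rule genes, namely Dcn, Col1a1, Col1a2, Col3a1, Lum, Slc6a13, Ranbp3l and Slc47a1. It also had to hold fewer than 3 UMIs of the endothelial genes Flt1, Cldn5, Pecam1 and Ptprb, a minimum of 200 genes, and no more than 5% of its UMIs from mitochondrial genes. Members were thus chosen by their UMI counts of these 12 genes. The rule found 381 nuclei among the 19475 that passed the gene and mitochondrial limits, or 1.96%. For this reason the levels of its 12 genes in these nuclei are descriptions and were not tested.

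Frozen hippocampi of 9-month-old mice of strain B6 were pooled by genotype, and each pool gave 1 library on the Chromium 3′ platform, which captures polyadenylated RNA in droplets. The 4 libraries analysed here are WT (7 hippocampi), EKO (7 hippocampi), P301S (8 hippocampi) and P301S/EKO (7 hippocampi). P301S names a mutation of human tau. In the widely used transgenic line of that name the prion protein promoter drives the human transgene, but the labels do not name the line. EKO is read here as loss of Apoe, the gene the series title concerns, and Apoe UMIs were checked in every library below. No treatment is labelled in any group, and the labels give neither the sex of the mice nor any further allele. Each genotype has 1 pooled library, so no genotype difference has a replicate check and no p-value is given for one. Every interval on a level, share or ratio covers counting error only.

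Fibroblasts of the brain lie in the pia, arachnoid and dura and follow larger vessels into the tissue inside the perivascular space. They lay down the collagens and small proteoglycans of these layers, and they carry transporters that move amino acids, neurotransmitters and organic ions between cerebrospinal fluid and tissue. Meningeal fibroblasts are also known for prostaglandin D synthase (Ptgds), for retinoic acid synthesis and for insulin-like growth factor binding proteins. The arachnoid adds an epithelium-like barrier layer. Endothelial cells, pericytes and smooth muscle share the vessel wall with them, and Dcn is not exclusive to fibroblasts.

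The libraries held 6145 (WT), 5982 (EKO), 3156 (P301S) and 6767 (P301S/EKO) barcodes with 8369762 to 14251675 UMIs in total. Of these, 2934 to 5576 were kept per library. The median kept nucleus had 1941 (WT), 1469 (EKO), 2172 (P301S) and 1446.5 (P301S/EKO) UMIs. All lists of 4 values below keep this order of libraries. The P301S library held no kept nucleus under 1000 UMIs, whereas the EKO and P301S/EKO libraries held 1060 and 1247. Pairs of libraries shared 19 to 69 barcode sequences.

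Members numbered 88, 82, 105 and 106. Their share of kept nuclei was 1.60% (exact 95% binomial interval 1.28 to 1.97), 1.5% (1.20 to 1.86), 3.58% (2.94 to 4.32) and 1.90% (1.56 to 2.29). The P301S interval lay above the other three, which overlapped. The label was then set against neuron markers. Most members held these at more than 50% of the library median. Most of those held under 3 UMIs of other fibroblast markers, as given below. A set of 14 neuron marker genes made up a median of 1.35 times the library's own median share in 256 of the 381 members (67.2%). These 256 lay above 50% of that median and are called neuron-rich members. The other 125 (32.8%), with a median of 0.117 times, are called neuron-poor members. Both groups were drawn with that neuron marker share, so their neuron marker levels are no finding. Near the dividing line, 31 members lay between 0.3 and 0.8 times the library median.

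Neuron-rich members met the rule mainly through Dcn, a small leucine-rich proteoglycan that binds collagen fibrils. Dcn was the only rule gene seen in 200 of 256 neuron-rich members (46, 44, 38 and 72) but in 3 of 125 neuron-poor members. At least 2 different rule genes were seen in 51 neuron-rich and 111 neuron-poor members. With Dcn left out, 22 neuron-rich and 110 neuron-poor members still reached 3 UMIs. Exactly 3 rule UMIs, the lowest number admitted, were held by 135 neuron-rich and 35 neuron-poor members. Just outside the rule, with 2 rule UMIs, lay 100, 88, 55 and 99 nuclei, of which 12, 13, 9 and 10 were neuron-poor. A further 36 nuclei reached the rule genes but held 3 or more endothelial UMIs and were not members.

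**Figure D1:**
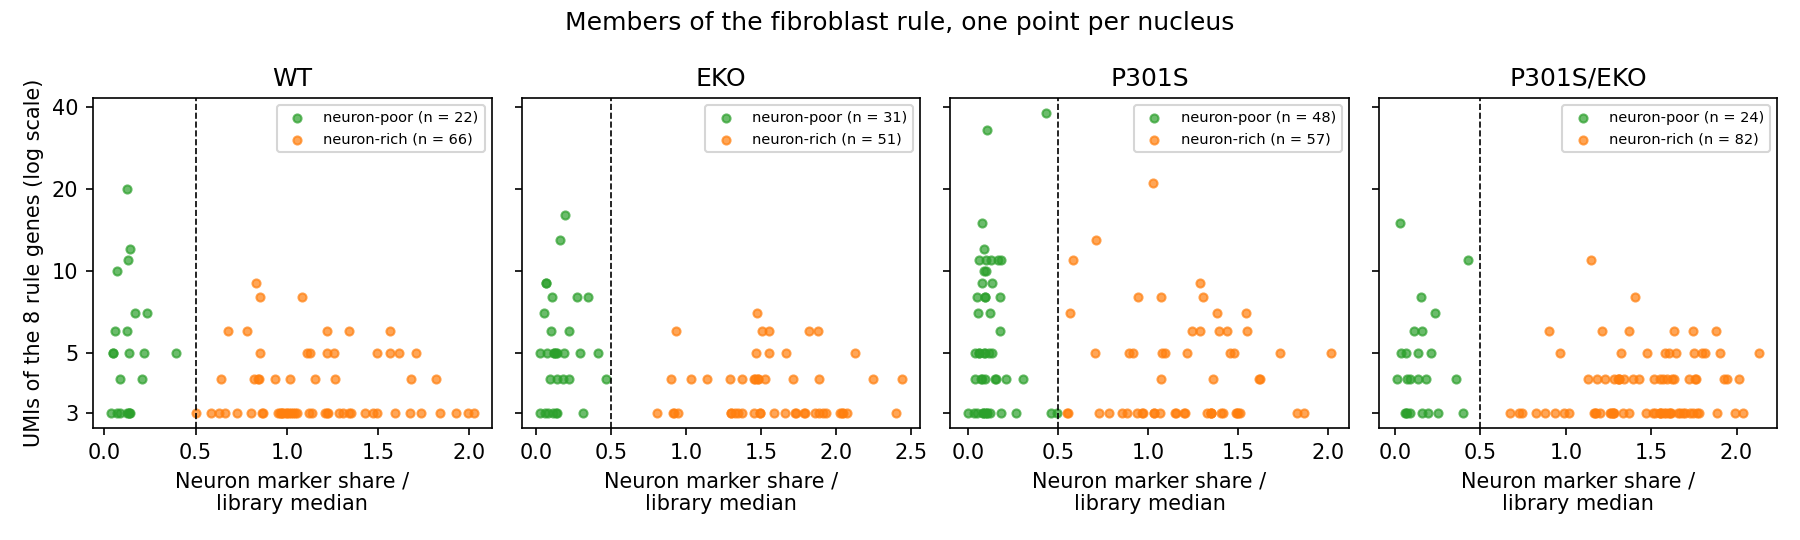
Each point is 1 member, with its neuron marker share relative to the library median on the x axis and its UMIs of the 8 rule genes on a logarithmic y axis, in 1 panel per library; the dashed line is at 0.5. Of the members, 125 lie left of the line and reach 38 rule UMIs, and 256 lie right of it, 135 of them at exactly 3.

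Detection of the rule genes is given as a description. A Slc6a13 UMI was found in 65.6% of neuron-poor members, 6.64% of neuron-rich members, 4.55% of 484 nuclei with microglia markers, 3.30% of endothelial nuclei and 0.584% of 14729 other neuron-rich nuclei. For Col1a1 the shares were 46.4%, 7.81%, 2.89%, 1.5% and 0.726%, and for Col1a2 they were 47.2%, 6.64%, 3.31%, 1.80% and 0.435%. Dcn was seen in 93.8% of neuron-rich and 49.6% of neuron-poor members, against 7.01% of other neuron-rich nuclei. These shares follow from the rule, have no test and support no label. Median depth was 1601.5, 879, 1424 and 866.5 UMIs in neuron-poor members, 1962, 1676.5, 2259.5 and 1297.5 in nuclei with microglia markers, and 2570.5, 1871, 2617 and 2035.5 in neuron-rich members. Neuron-poor members are described separately below.

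Neuron-poor members numbered 22, 31, 48 and 24. They made up 0.400% (0.251 to 0.604), 0.568% (0.386 to 0.805), 1.64% (1.21 to 2.16) and 0.430% (0.276 to 0.640) of kept nuclei. The P301S share was the highest and its interval did not overlap the others, while the other three overlapped. After every nucleus was thinned to 1000 UMIs and shallower nuclei were left out (129, 1060, 0 and 1247), the shares were 0.260% (0.142 to 0.437), 0.136% (0.0501 to 0.297), 1.06% (0.719 to 1.5) and 0.116% (0.0375 to 0.269). In the unthinned nuclei of at least 1000 UMIs they were 0.391%, 0.227%, 1.64% and 0.254%. P301S stood above the other libraries in all 3 versions. P301S was also highest for neuron-poor endothelial nuclei (1.36%, 0.678%, 1.94% and 0.646% of kept nuclei) and for nuclei with microglia markers (1.05%, 1.54%, 5.79% and 3.08%). The part of a general shift in non-neuronal nuclei was not tested. How much pia or choroid tissue each dissection carried was not measured. A larger share of fibroblast nuclei among dissected nuclei and a smaller number of other nuclei cannot be told apart in shares.

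**Figure D2:**
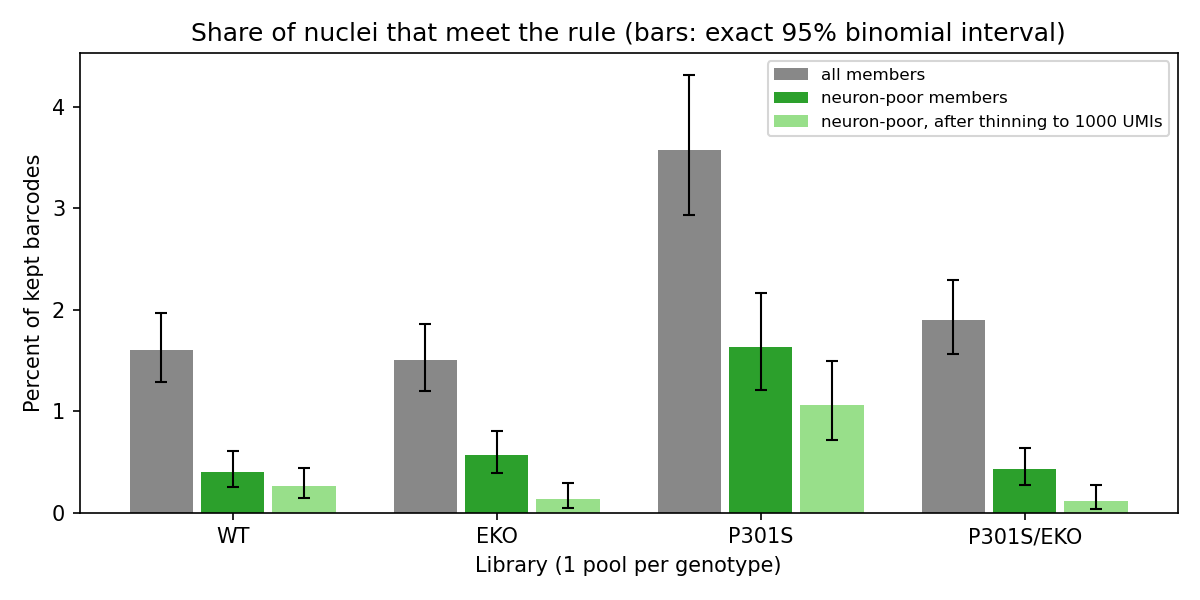
The y axis is the percent of kept nuclei in each of the 4 libraries on the x axis; grey bars are all members, dark green bars neuron-poor members and light green bars neuron-poor members after thinning to 1000 UMIs, with exact 95% binomial intervals. P301S stands highest in each kind of bar, at 3.58%, 1.64% and 1.06%.

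Among the rule genes, Dcn in neuron-poor members stood at 996 (705 to 1367), 1004 (717 to 1367), 700 (546 to 885) and 1018 (677 to 1472) CPM (counts of the gene scaled to the summed UMIs of the members), from 38, 40, 70 and 28 UMIs. The 4 intervals overlapped. Slc6a13, the GABA and taurine transporter GAT2 of the meninges, stood at 917 (639 to 1276), 1255 (932 to 1655), 1060 (868 to 1283) and 1237 (856 to 1728) CPM. It was seen in 82 of the 125 nuclei. The type I collagen chains that form most fibrils of the meninges were at 393, 527, 400 and 727 CPM (Col1a1) and 315, 678, 550 and 618 (Col1a2). Col3a1, the type III chain, rested on 2, 6, 27 and 8 UMIs. Lum, a keratan sulfate proteoglycan, was at 341, 251, 190 and 182 CPM, and Ranbp3l at 472, 351, 200 and 182. Of the 8 genes, Slc47a1, an organic cation exporter of arachnoid barrier cells, was the least often seen. It gave 0, 8, 12 and 4 UMIs in 10 nuclei. Of these 10 nuclei, 9 held no Slc6a13 UMI and 1 held both genes.

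These genes lie on several chromosomes (GRCm38 coordinates, GENCODE annotation). Dcn (chr10:97479609-97518143) and Lum (chr10:97565128-97572703) are neighbours. Slc6a13 is at chr6:121300227-121337733 and Col1a2 at chr6:4504814-4541544, Col1a1 at chr11:94936224-94953042 and Slc47a1 at chr11:61343401-61378345, Col3a1 at chr1:45311538-45349706 and Ranbp3l at chr15:8967949-9067335. The deposited matrices give 1 count per gene, so exons, introns and UTRs cannot be separated.

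Ptgds, which makes prostaglandin D2 and is secreted into cerebrospinal fluid, was not used by the rule and was among the most abundant transcripts. It stood at 36877, 40590, 18197 and 44884 CPM in neuron-poor members, and 117 of the 125 nuclei held a UMI. The P301S library was the lowest and the other three lay above it. Single nuclei contributed up to 529, 350, 328 and 652 of the 1407, 1617, 1819 and 1234 Ptgds UMIs. In neuron-poor endothelial nuclei of the same libraries Ptgds stood at 532, 3164, 1929 and 1082 CPM.

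Other abundant transcripts outside the rule included Apod, a lipid-binding secreted protein, at 2516, 4393, 3061 and 3819 CPM. Vtn, a matrix protein also made by pericytes, was at 1756, 3414, 1741 and 3019, with both Apoe-deficient libraries above both libraries with Apoe. The cystine transporter Slc7a11 was at 1101, 1832, 1100 and 837. Igfbp2, which binds insulin-like growth factors, was at 734, 1581, 990 and 1491, and Pcolce, which enhances procollagen cleavage, at 341, 1004, 620 and 764 CPM. Both were lowest in WT.

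**Figure D3:**
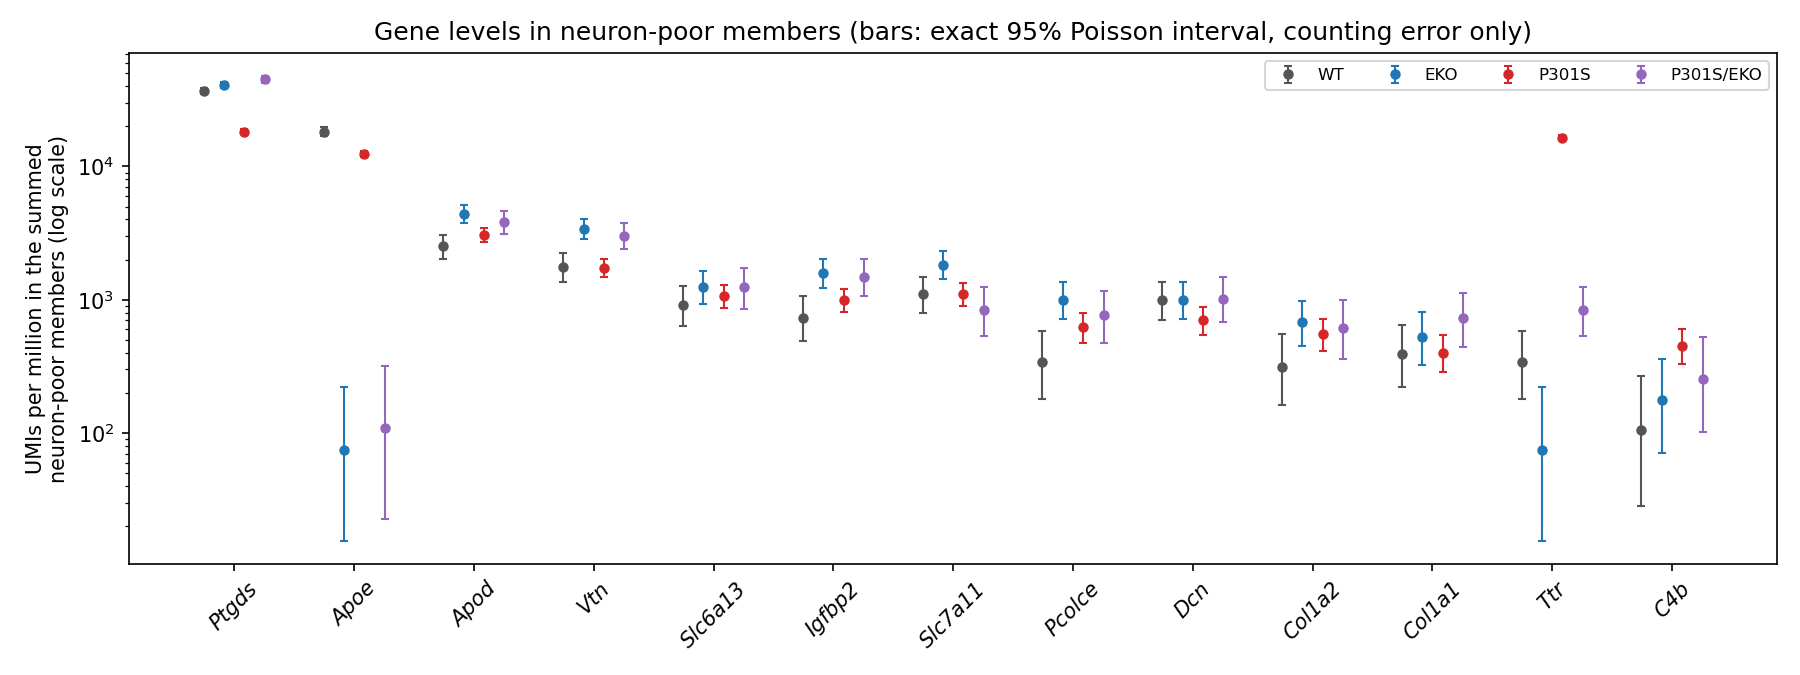
The x axis lists genes and the logarithmic y axis gives CPM in the summed neuron-poor members, 1 point per library with its exact 95% Poisson interval. Apoe drops to 75.3 and 109 CPM in the 2 Apoe-deficient libraries, and Ttr reaches 16467 CPM in P301S, against 837 or less in the other 3 libraries.

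The other fibroblast markers, a list of 30 genes, gave 3 or more UMIs in 17 of 22, 23 of 31, 46 of 48 and 21 of 24 neuron-poor members, at 3381, 6978, 4932 and 5965 CPM in all. In neuron-rich members the same list gave 3 or more UMIs in 12 of 66, 4 of 51, 12 of 57 and 4 of 82. Markers of other types were present in neuron-poor members as well. Astrocyte markers reached 3 UMIs in 21, 27, 40 and 18 neuron-poor members. Oligodendrocyte markers did so in 14, 6, 23 and 10, pericyte and smooth muscle markers in 9, 19, 27 and 10, and endothelial markers in 5, 10, 14 and 2. Microglia markers reached 3 UMIs in 3, 2, 13 and 3 and choroid plexus markers in 4, 5, 29 and 5. Border macrophage markers did so in 0, 0, 2 and 0, and ependymal markers in none of the 125. Summed levels ranged from 5932 to 10641 CPM for astrocyte, 2306 to 7154 for pericyte and smooth muscle, and 446 to 1391 for microglia markers. Their part in the results below was not tested. A gene level in a summed library cannot tell fewer expressing nuclei from less RNA per nucleus.

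Smooth muscle transcripts sat in few nuclei. Acta2, the smooth muscle actin, gave 10, 81, 52 and 4 UMIs in 15 neuron-poor members. A single EKO nucleus held 57 of the 81 and a single P301S nucleus 44 of the 52. Tagln, another contractile gene, gave 1, 33, 24 and 3 UMIs, with 21 and 23 of them in 1 nucleus of the EKO and P301S libraries. Rgs5, a pericyte gene, was seen in 8 of 125 nuclei.

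The class was next compared with endothelial nuclei of the same 4 libraries, with edgeR's quasi-likelihood test on UMIs summed by class and library. The library served as a block, Benjamini-Hochberg adjustment ran over all genes tested, and the 12 rule genes were left out. The tested genes were counted in the same nuclei that the rule chose, so the test says how repeatable a difference was over 4 libraries and does not support the choice of nuclei. Of 1061 genes tested in neuron-poor members, 109 were higher (10.3%) and 99 lower (9.33%) than in endothelial nuclei. The median gene lay at 0.002 on the log2 scale. Only 205 of the 333 endothelial nuclei were neuron-poor, so the split bears on neuronal genes here, and the lower calls include the neuron markers Meg3, Syt1, Snhg11 and Dlgap1. Against neuron-poor endothelial nuclei 3 of 3 neuron markers tested were higher. Neuronal genes are therefore not read.

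Slc13a4, a sulfate transporter of the meninges, was at 393, 251, 230 and 327 CPM in neuron-poor members and 1.90, 0, 0 and 0 in endothelial nuclei. It passed the filter on low counts through the members alone and had to differ, so no test is given for it. On the log2 scale Slc22a6, an organic anion transporter, was higher by 4.44 and Slc6a20a, an imino acid transporter, by 3.39. Slc7a11 was higher by 5.07 and the amino acid carrier Slc38a2 by 2.38. Of the list of 34 solute carriers, 13 passed the filter on low counts, with 8 higher and 4 lower and a median of 2.05. The 4 lower genes were Slc2a1, Slco1c1, Abcg2 and Abcb1a, which are known as transporters of the endothelial blood-brain barrier.

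Fmod, a collagen-binding proteoglycan, was at 341, 276, 260 and 218 CPM and at 3.80, 0, 2.35 and 9.50 in endothelial nuclei, so it too had to differ. Aebp1, a secreted collagen-binding protein, was higher by 5.55 and Pcolce by 4.36. The transcription factors Zic4 and Zic1, known from meningeal development, were higher by 4.47 and 3.10. Igfbp2 was higher by 4.91 and Igf2 by 3.65. Of the 30 other fibroblast markers 8 passed the filter and all 8 were higher, with a median of 4.18. Of 37 fibrillar collagens and partners 6 passed and 4 were higher, with a median of 1.72. Against neuron-poor endothelial nuclei alone 5 of this list were tested, of which Pcolce and Fmod were higher and Fn1, fibronectin, was lower, with a median of 0.60. A gene that passed the filter only because members held it had to differ. Folds of genes rare in endothelial nuclei, here and in the neighbouring paragraphs, are thus descriptions. The counts describe the lists and are no support for them.

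Ptgds was higher by 4.67 (edgeR adjusted p = 4.7e-08) in 4 of 4 libraries and Apod by 2.81. The gap junction genes Gjb2 and Gja1, known in meningeal fibroblasts, were higher by 5.14 and 2.30. Among complement genes, Serping1, the C1 inhibitor, was higher by 4.07. Apoe stood at 18216, 75.3, 12425 and 109 CPM against 2709, 57.4, 10423 and 28.5 in endothelial nuclei. No test is read for it, since 2 of the 4 libraries lack Apoe. Vtn was higher by 1.40 and Pdgfrb, a receptor of mural cells and fibroblasts, by 1.31. When the endothelial nuclei were limited to neuron-poor ones, a comparison added after seeing the data, Pdgfrb no longer passed (log2 0.70, edgeR adjusted p = 0.0896). Vtn then differed by 0.77 and was higher in 3 of 4 libraries.

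Genes lower in neuron-poor members included Sox18, an endothelial transcription factor (log2 -8.27), Cd34 (-5.40), Ly6c1 (-4.65) and the organic anion carrier Slco1a4 (-3.25). Rgs5 was lower by 3.57 on the log2 scale, and its endothelial level was 841, 1512, 503 and 1501 CPM. Igfbp7 was lower by 1.79. Of 3 antigen presentation genes tested 2 were lower, H2-D1 (-1.09) and B2m (-1.24), and 6 of 6 endothelial markers tested were lower. Endothelial nuclei were chosen by their UMIs of Flt1, Cldn5, Pecam1 and Ptprb, genes that members had to lack or hold at low counts. A gene rare in members could pass the filter through endothelial nuclei alone and then had to be lower. Lower folds and counts of endothelial genes, here and above, are thus descriptions. Sparc, a collagen-binding matrix protein, did not pass (0.04, edgeR adjusted p = 0.948). Against neuron-poor endothelial nuclei alone 188 of 719 genes were higher (26.1%) and 182 lower (25.3%). Without the P301S library these totals fell from 370 to 204.

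**Figure D4:**
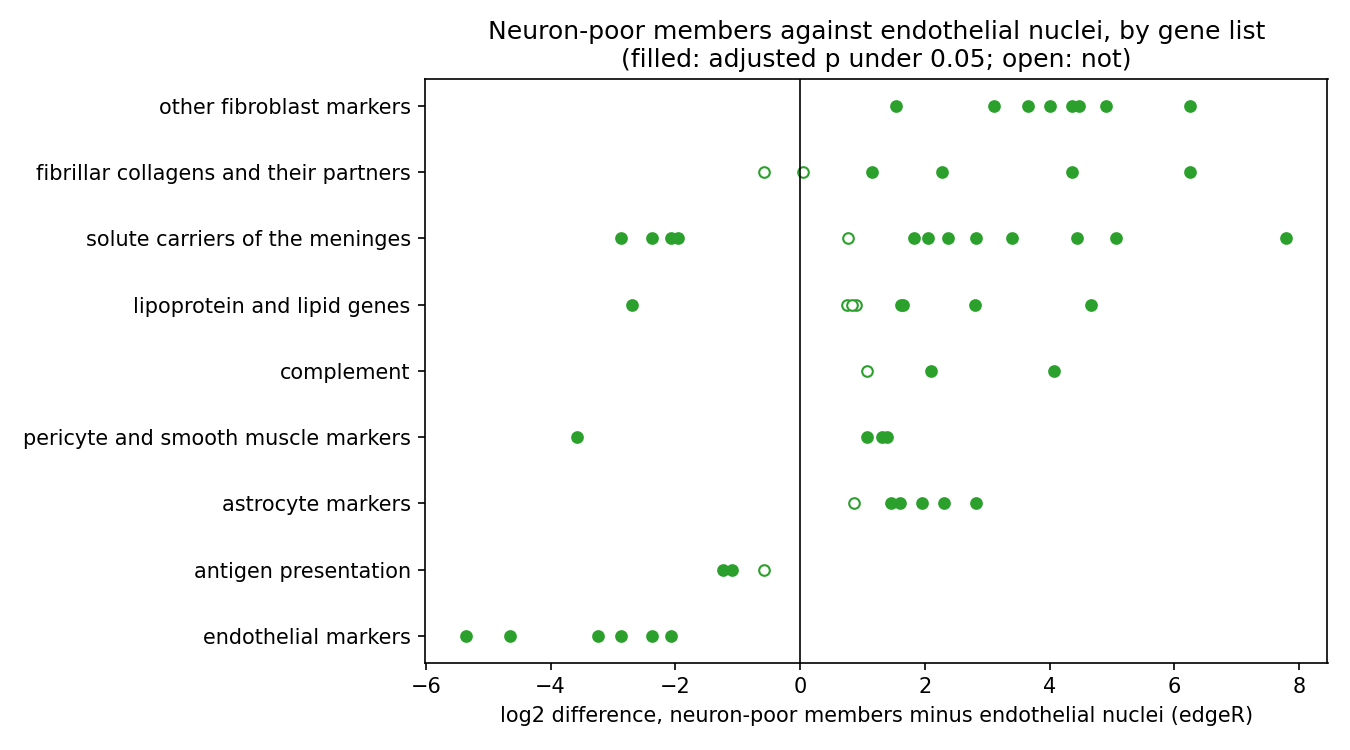
Each point is a gene on the list named on the y axis, placed by its log2 difference between neuron-poor members and endothelial nuclei; filled points have an edgeR adjusted p under 0.05 and open points do not. The 8 other fibroblast markers tested lie right of 0 and the 6 endothelial markers tested lie left of it. Both placings are descriptions, since fibroblast and endothelial genes chose the nuclei.

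Against all other kept nuclei, which are mostly neuronal, 609 of 12393 genes were higher in neuron-poor members (4.91%) and 1384 lower (11.2%), with a median of -0.48 on the log2 scale. The split by neuron markers bears directly on the lower genes, so only the higher ones are described. A gene rare in the other nuclei could pass the filter on low counts through the members alone and then had to differ. Folds and list counts of such genes, here and in the next paragraph, are descriptions and support no label. Among retinoid genes Aldh1a2, the retinoic acid synthesis enzyme of meninges, was higher by 5.84 on the log2 scale. Crabp2, which carries retinoic acid inside cells, was higher by 4.56. Aldh1a2 was seen in 14 of the 125 nuclei, at 131, 151, 40.0 and 36.4 CPM. Of 17 retinoid genes 14 were tested and 8 were higher, with a median of 2.13.

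Bmp7, a bone morphogenetic protein, was higher by 5.19, Wnt6 by 5.89, and the transcription factors Foxc2, Tbx18 and Osr1 by 6.02, 5.00 and 4.5. Of 42 growth factors and morphogens 32 were tested and 11 were higher. The matrix genes Omd and Mfap5 were higher by 6.58 and 6.70, and the hyaluronan-binding gene Itih2 by 7.22. Basement membrane genes were higher in 8 of 16 tested (22 listed), among them Nid1 (5.12) and Lama2 (3.27), and 22 of 25 tested other fibroblast markers were higher. C4b, a complement component, was higher by 1.28 (edgeR adjusted p = 0.00322), in 4 of 4 libraries. Among markers of other types, 8 of 11 astrocyte and 5 of 5 choroid plexus markers tested were higher, while the medians of 11 microglia and 8 oligodendrocyte markers tested were -0.0029 and 0.21.

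The same tests were run with all 381 members. Against endothelial nuclei 197 of 4452 genes were higher (4.42%) and 594 lower (13.3%), and against all other nuclei 359 of 12903 were higher (2.78%) and 272 lower (2.11%). Leaving out the P301S/EKO library brought the endothelial total from 791 to 440, and leaving out P301S brought the other total from 631 to 327.

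Neuron-rich members were compared with other neuron-rich nuclei, a comparison added after seeing the data. Of 12121 genes 132 were higher (1.09%) and 130 lower (1.07%), and without the library block 10 and 9 were. Leaving out the P301S or the P301S/EKO library gave 146 and 170 calls in all, against 262. Nnat, an imprinted proteolipid gene, was at 107, 436, 474 and 522 CPM against 62.4, 111, 113 and 119 in other neuron-rich nuclei, higher by 1.76 on the log2 scale (edgeR adjusted p = 9.8e-40). The fibroblast genes Gjb2, Mgp, Igf2 and Pcolce were higher by 3.81, 3.06, 2.83 and 2.48, at 5.61 to 27.8 CPM for Gjb2. Mgp gave 113, 7, 16 and 5 UMIs, and a single nucleus held most of those in WT. A gene rare in other neuron-rich nuclei could pass the filter through the members alone, so these folds are descriptions. They do not show that neuron-rich members in general carry fibroblast transcripts. Lower genes included Vip, a neuropeptide gene (-3.25), Erbb4 (-2.97) and Npy (-1.56), and of the 14 neuron markers Syt1, Gad1, Camk2a and Gad2.

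Genotype ratios were then read in neuron-poor members. Apoe, the targeted gene, gave 695, 3, 1242 and 3 UMIs, so that EKO stood 242-fold below WT (82.4 to 1176) and P301S/EKO 114-fold below P301S (38.9 to 553). Both libraries labelled EKO were thus low. With Apoe intact, P301S stood 1.47-fold below WT (1.33 to 1.61). Other classes went the other way, with P301S above WT. From WT to P301S, Apoe went from 6769 to 23515 CPM in nuclei with microglia markers and from 3820 to 7695 in neuron-poor endothelial nuclei. It went from 1099 to 4418 in other neuron-rich nuclei and from 1840 to 8944 in neuron-rich members. With 20 or more UMIs over 2 libraries, 818 genes could be compared between P301S and WT. Of these, 84 were at least 2-fold higher (10.3%) and 79 at least 2-fold lower (9.66%). Comparisons share libraries, so their values are given side by side.

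P301S over WT, the ratio that bears on the tau genotype with Apoe present, was highest for Ttr, the thyroid hormone carrier of choroid plexus epithelium. Its UMIs were 13, 3, 1646 and 23, or 341, 75.3, 16467 and 837 CPM, a 48.3-fold excess of P301S over WT (28.2 to 91.0). One P301S nucleus held 711 of the 1646, and 41 of the 48 P301S nuclei held at least 1. Ttr also stood highest in P301S in other classes, at 258, 20.2, 1147 and 372 CPM in neuron-poor endothelial nuclei and 365, 8.12, 923 and 263 in other neuron-rich nuclei. Without nuclei holding 3 or more Ttr UMIs the log2 ratio of P301S to WT was 0.82. That ratio had to shrink, since nuclei were dropped by their own Ttr count. It does not show how few nuclei carry the excess. Enpp2, a lysophosphatidic acid enzyme that is also a choroid plexus marker, was 2.89-fold higher (1.65 to 5.47). Of the other choroid plexus markers Kcnj13, Kl and Sostdc1 gave 15, 13 and 11 UMIs in P301S and 1, 0 and 0 in WT, and Folr1, Otx2, Kcne2 and F5 were at 0 in the 3 libraries other than P301S. Choroid plexus markers in all were at 734, 602, 18067 and 1164 CPM, and their part in other ratios was not tested.

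C4b gave 4, 7, 45 and 7 UMIs, and its P301S level was 4.29 times that of WT (1.57 to 16.4). H2-D1, an MHC class I chain, was at 262, 276, 660 and 509 CPM, 2.52-fold higher (1.29 to 5.50). C1qa, a microglia marker, was at 105, 201, 480 and 364 CPM, 4.58-fold higher (1.68 to 17.5), and stood at 992, 1643, 2294 and 2730 in nuclei with microglia markers. Inpp5d, another microglia marker, was at 0 in all 125 nuclei, and P2ry12 gave 1, 0, 1 and 1 UMIs. For Neat1, a nuclear noncoding RNA, P301S exceeded WT 2.83-fold (1.95 to 4.23). Mgp, an inhibitor of matrix calcification, gave 5, 60, 64 and 25 UMIs and was 4.89-fold higher (1.99 to 15.6). Over all members its ratio went the other way, 1.85-fold lower in P301S (1.38 to 2.49), with neuron-rich members at 524, 59.9, 73.0 and 28.1 CPM. A single nucleus held 109 of the 113 neuron-rich WT UMIs. In neuron-poor members these genes were lowest in WT, where only 22 nuclei were summed.

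Ptgds in P301S stood 2.03-fold below WT (1.89 to 2.17). The astrocyte glutamate transporter Slc1a2 was 3.14-fold lower (2.33 to 4.23) and the secreted chaperone Clu 2.03-fold lower (1.60 to 2.57). Astrocyte markers were at least 1.5-fold lower for 5 of 6 measured, against 20.4% of all 818 genes, and their summed level was 10641 CPM in WT and 5932 in P301S. Vtn was 1.01-fold lower (0.749 to 1.34). The rule genes chose the nuclei of every library, so their ratios are descriptions only. Slc6a13 was 1.16-fold higher (0.782 to 1.75), Col1a2 1.75-fold higher (0.926 to 3.59) and Dcn 1.42-fold lower (0.932 to 2.14). Of the 32 fibrillar collagens and partners outside the rule 8 were measured, with 5 at least 1.5-fold higher and 0 lower and a median log2 ratio of 0.70, against 20.5% of all genes higher and a median of -0.04. Of the 32 solute carriers outside the rule 9 were measured, with 1 higher and 3 lower.

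P301S/EKO over P301S gave 77 genes at least 2-fold higher (10.3%) and 78 lower (10.5%) of 745. Ptgds was 2.47-fold higher without Apoe (2.29 to 2.65), Vtn 1.73-fold (1.32 to 2.27) and Serping1 2.55-fold (1.19 to 5.30). Among nuclei of at least 1000 UMIs, however, the log2 ratios of Vtn and Serping1 turned to -0.54 and -0.07. Without the nucleus richest in Ptgds in each library the Ptgds log2 ratio was 0.51 instead of 1.30. Nnat was 3.12-fold higher (2.07 to 4.67), with 26 of 48 P301S/EKO UMIs in 1 nucleus. F3, tissue factor, was 2.52-fold higher (1.45 to 4.32), but its log2 ratio was -0.78 among members with at least 5 rule UMIs. Ttr was 19.7-fold lower (13.1 to 31.1) and Enpp2 7.29-fold lower (2.76 to 27.2). No ratio is read for Acta2, of which 1 P301S nucleus held 44 of 52 UMIs. The rule genes Slc6a13, Col1a2 and Dcn were 1.17-fold (0.768 to 1.73), 1.12-fold (0.611 to 1.97) and 1.45-fold higher (0.903 to 2.28), and C4b was 1.77-fold lower (0.792 to 4.65), all with intervals that include equality. Of 7 measured fibrillar collagens and partners outside the rule 1 was at least 1.5-fold higher, against 26.3% of all genes, and 1 was lower, against 16.9%. Their median was -0.25, against 0.15 for all genes.

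EKO over WT gave 41 of 374 genes at least 2-fold higher (11%) and 24 lower (6.42%). Mgp was 11.5-fold higher (4.66 to 36.7) and Igfbp7 5.15-fold (2.39 to 12.7). Both ratios carry a limit. In EKO, 4 neuron-poor members held 3 or more Acta2 UMIs. Without such nuclei both genes turned higher in P301S/EKO than in EKO, as given further below. Over all members Mgp was 1.09-fold lower (0.799 to 1.49). Acta2 was 7.76-fold higher (4.01 to 16.8), but 1 EKO nucleus held 57 of its 81 UMIs. Its log2 ratio was 1.85 instead of 2.89 without the nucleus richest in it in each library. No genotype difference is read from it. Pcolce was 2.95-fold higher (1.54 to 6.01), Igfbp2 2.15-fold (1.36 to 3.49), Vtn 1.94-fold (1.44 to 2.65) and Apod 1.75-fold (1.35 to 2.26). The rule genes Col1a2 and Dcn were 2.15-fold (1.06 to 4.67) and 1.01-fold higher (0.630 to 1.61). Slc1a2 and Clu were 2.39-fold (1.67 to 3.47) and 2.21-fold lower (1.62 to 3.03). Fibrillar collagens and partners outside the rule gave 3 of 4 measured genes at least 1.5-fold higher and 0 lower, with a median of 0.83, against 25.7% of all genes and a median of 0.11.

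P301S/EKO over EKO gave 12 of 310 genes at least 2-fold higher (3.87%) and 24 lower (7.74%). F3 was 4.02-fold higher (1.82 to 9.80), Clu 1.80-fold (1.27 to 2.56) and Ttr 11.1-fold (3.36 to 57.8), the last from 3 UMIs in EKO. Slc7a11 was 2.19-fold lower (1.35 to 3.67). No ratio is read for Acta2, of which 1 EKO nucleus held 57 of 81 UMIs. Outside the rule only Pcolce and Sparc of the fibrillar collagens and partners were measured, and neither differed by 1.5-fold, where 15.2% of all genes were higher and 21.6% lower.

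The comparison of P301S with WT and that of P301S/EKO with EKO share no library. In both, 8 of 300 genes measured were at least 1.5-fold higher (2.67%) and 14 lower (4.67%). Ratio intervals lay on the same side of equality in both for Ttr, which was higher, and for Htra1, a secreted protease, which was lower. The comparisons of Apoe loss, EKO with WT and P301S/EKO with P301S, also share none. There 20 of 346 genes were at least 1.5-fold higher in both (5.78%) and 5 lower (1.45%). Genes whose intervals lay on the same side in both included Vtn, Igfbp2, Igfbp7, Pcca, Tmsb4x and mt-Co1, which were higher, and Apoe and Gm26917, which were lower. Vtn and Igfbp2 did not keep this direction between P301S/EKO and P301S among nuclei of at least 1000 UMIs. Igfbp7 carries the limit on Acta2 nuclei of the EKO library given above. Eif2s3y, a gene of the Y chromosome, was also lower in both Apoe-deficient libraries, as given at the end. The part of a different sex makeup in the Apoe-loss ratios was not tested.

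Ratios over all 381 members pointed elsewhere. P301S over WT was 2.99-fold higher for Col1a2 (1.73 to 5.45), 1.97-fold for Slc6a13 (1.41 to 2.80) and 9.78-fold for C4b (5.14 to 20.9). P301S/EKO over P301S was 2.17-fold lower for Col1a2 (1.28 to 3.84), 2.35-fold lower for Slc6a13 (1.60 to 3.54) and 5.28-fold lower for C4b. Col1a2 and Slc6a13 are rule genes that chose the nuclei, so their ratios are descriptions only. Neuron-poor members were 25%, 37.8%, 45.7% and 22.6% of all members, and their share moved with these ratios. In neuron-poor members alone the P301S/EKO over P301S log2 ratio went from -1.09 to 0.20 for Col1a2, from -1.22 to 0.24 for Slc6a13, from -0.95 to 0.32 for Pcolce and from -0.66 to 0.80 for Vtn. The ratio of these fibroblast genes over all members thus changed direction once neuron-rich members were left out. Over all members 344 of 5090 genes stood at least 2-fold above WT in P301S (6.76%) and 145 below (2.85%). For P301S/EKO over P301S 196 of 4727 were higher (4.15%) and 423 lower (8.95%). For EKO over WT 152 of 3630 were higher (4.19%) and 186 lower (5.12%), and for P301S/EKO over EKO 126 of 3148 were higher (4.0%) and 130 lower (4.13%).

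**Figure D5:**
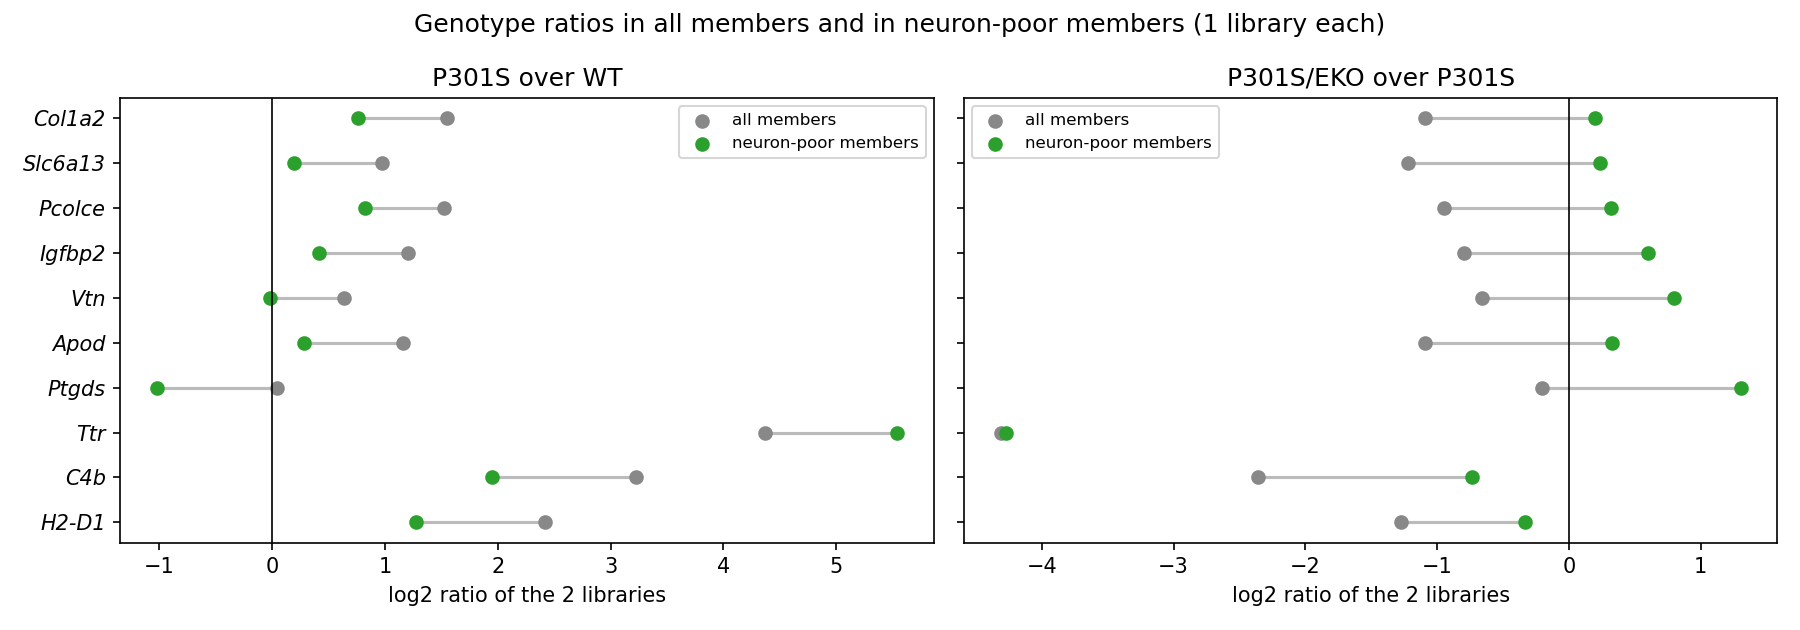
The x axis is the log2 ratio of 2 libraries for the genes on the y axis, P301S over WT on the left and P301S/EKO over P301S on the right; grey points are all members and green points neuron-poor members. On the right, Col1a2 moves from -1.09 to 0.20 and Slc6a13 from -1.22 to 0.24, while Ttr stays far below 0. Col1a2 and Slc6a13 are rule genes, so their ratios are descriptions.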

How the data were processed

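The authors deposited raw UMI counts per gene and barcode as matrices of 27998 genes, 1 library per genotype. Cell Ranger, Seurat and build mm10 are named per the submitters' processing notes, with versions not given in the sources used here. Nuclear counts can include unspliced RNA and free RNA of the suspension. The members and gene lists were chosen with earlier results of these data known. UMIs were summed over members per library and divided by their total (CPM). Levels have exact Poisson, shares exact Clopper-Pearson and ratios exact conditional binomial intervals (95%). Log2 ratios add 0.5 UMIs and need 20 UMIs over 2 libraries. Class differences used edgeR 4.0.16 (R 4.3.3; filterByExpr, TMM scaling, library block) with DESeq2 1.42.0 as an alternative. The replicates are 4 pooled libraries of different genotypes. Both classes come from the same library, which is why the block pairs them.

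Named genes were the rule genes, Apoe, up to 6 abundant members and up to 4 of the largest ratios per list, the 10 most extreme ratios each way per genotype comparison, genes 1.5-fold apart in both backgrounds, and the 20 largest changes per class test. Rgs5, Acta2 and Tagln nuclei, Pdgfrb, Sparc and Nnat are also given as members of lists. No doublets were removed in the main values. Scrublet in scanpy 1.11.5 called 0 by its own threshold, so its own calls were not used, and removal of the highest scores (0.8% per 1000 barcodes) was an alternative that took out 3 neuron-poor and 11 neuron-rich members. On simulated counts, the edgeR comparison of neuron-poor members with endothelial nuclei recovered 27% of genes changed 2-fold and 91% of genes changed 4-fold (1231 genes). The simulation changed only genes with many UMIs, with a fixed dispersion and no library or genotype effect. Recovery of sparse genes in the real libraries is therefore not known from it. Other alternatives were stricter member rules, thinning, scaling, weighting and subtraction of the profile of all barcodes, a stand-in for free RNA. Some genes that the rule would name are not reported here.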

Additional observations from a re-analysis of the deposited data

Results flagged for a closer look

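For 10 genes the log2 ratios of the tau genotype with and without Apoe had opposite signs in the main values. Each comparison rests on 1 library per genotype and the difference was not tested. Over all members, the log2 ratios of P301S to WT and of P301S/EKO to EKO were 1.55 and -1.04 for Col1a2, 0.97 and -0.97 for Slc6a13, and 1.16 and -0.96 for Apod. They were 0.63 and -1.18 for Vtn, 1.21 and -1.21 for Igfbp2, and 1.52 and -1.28 for Pcolce. Since Col1a2 and Slc6a13 are rule genes that chose the nuclei, their ratios are descriptions only. The share of neuron-poor nuclei among members moved the same way, at 25% in WT, 45.7% in P301S, 37.8% in EKO and 22.6% in P301S/EKO. In neuron-poor members the 2 log2 ratios were -1.02 and 0.15 for Ptgds, 2.16 and -0.71 for Mgp, 2.64 and -2.72 for Tagln, and -1.02 and 0.85 for Clu. The Ptgds value of 0.15 lay near equality. Under some other settings given below, P301S/EKO over EKO turned lower for Ptgds and higher for Mgp. An opposite direction is therefore not read for these 2 genes. Over all members Mgp was lower in both comparisons, at -0.89 and -1.54, and 109 of the 113 UMIs of WT neuron-rich members came from 1 nucleus. In the EKO library 21 of 33 Tagln UMIs, and in P301S 23 of 24, came from 1 nucleus.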

How the results depend on the processing

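The share of nuclei that were members, 1.60%, 1.5%, 3.58% and 1.90% in WT, EKO, P301S and P301S/EKO, became 0.545%, 0.531%, 1.77% and 0.520% with at least 5 rule UMIs. It became 0.490%, 0.604%, 1.67% and 0.412% without Dcn in the rule, 0.654%, 0.678%, 2.08% and 0.502% with at least 2 rule genes, and 0.400%, 0.568%, 1.64% and 0.430% for neuron-poor members. Thinning to 1000 UMIs gave 0.521%, 0.5%, 1.60% and 0.716%, and no mitochondrial limit gave 4.34% in P301S. P301S stayed highest in each. The genes at least 2-fold apart over all members numbered 489 for P301S against WT, 619 for P301S/EKO against P301S, 338 for EKO against WT and 256 for P301S/EKO against EKO. They numbered 218, 187, 177 and 56 without Dcn, 278, 302, 191 and 87 with at least 5 rule UMIs, 163, 155, 65 and 36 in neuron-poor members, 104, 132, 52 and 34 with at least 50 UMIs, and 5487, 4356, 4190 and 5216 with no minimum above 1 UMI. With at least 2 rule genes the comparisons of P301S/EKO with P301S and with EKO gave 338 and 64.

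Of the ratios over all members, P301S over WT turned to -0.55 for Apoe and -0.019 for Vtn in neuron-poor members. P301S/EKO over P301S turned without Dcn, with at least 2 rule genes and in neuron-poor members, in that order, to 0.16, 0.42 and 0.20 for Col1a2, 0.18, 0.40 and 0.24 for Slc6a13, 1.33, 1.47 and 1.30 for Ptgds, 0.33, 0.62 and 0.32 for Apod, 0.93, 0.97 and 0.80 for Vtn, 0.61, 0.74 and 0.60 for Igfbp2, and 0.38, 0.53 and 0.32 for Pcolce. With at least 5 rule UMIs it was 0.53 for Vtn and 0.12 for Igfbp2. P301S/EKO over EKO turned to 0.023 for Slc6a13 with at least 2 rule genes, and to 0.093, 0.076 and 0.15 for Ptgds under the same 3 rules.

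In neuron-poor members, P301S/EKO over P301S among nuclei of at least 1000 UMIs was -0.54 for Vtn, -0.11 for Igfbp2 and -0.066 for Serping1. Slc1a2 was -1.06 without Dcn, -0.84 with at least 5 rule UMIs and -0.81 without the richest nucleus. With at least 5 rule UMIs F3 was -0.78 and Nnat in P301S/EKO over EKO was -0.23. EKO over WT turned for Ptgds to -0.036 without Dcn and -0.064 with at least 1000 UMIs. P301S/EKO over EKO turned for Ptgds to -1.09 with at least 5 rule UMIs, -0.11 with equal weight per nucleus, -1.02 without nuclei of 3 or more Acta2 UMIs and -0.59 without the richest nucleus. Without the Acta2 nuclei it was 0.78 for Igfbp7 and 0.92 for Mgp, and Mgp was 0.053 with at least 1000 UMIs. The choice of 1000 UMIs, of Acta2 nuclei, of Ttr nuclei and of the richest nucleus was made after seeing the data. The cause of these turns was not tested.

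Against endothelial nuclei 791 genes were called for all members, 471 with DESeq2, 167 without Dcn and 208 in neuron-poor members, and 440 to 847 with each library left out. Against all other nuclei the numbers were 631, 331, 1210 and 1993, and 327 to 540. Neuron-poor members against neuron-poor endothelial nuclei gave 370, 231 with DESeq2 and 204 to 494 with a library left out, and neuron-rich members against other neuron-rich nuclei gave 262, 87 and 146 to 197. Without the block that pairs classes by library, these 4 counts were 674, 207, 361 and 19. No paired analysis was possible because each genotype has 1 library, so the block applies to classes only. Free RNA itself was not measured, since each library held at most 1 barcode under 200 genes. The summed profile of all barcodes, which is mostly that of the nuclei themselves, stood in for it. This profile could not be subtracted from all members, whose neuron marker share was 0.850 to 1.39 of the share in the profile. That was over the limit of 0.9 in every library but P301S. Subtraction ran for neuron-poor members and turned no direction, but it cannot show what free RNA adds. Counts of UMIs limit every ratio, since 22 to 48 neuron-poor nuclei were summed per library.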

Other observations

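Eif2s3y, a gene of the Y chromosome, stood at 558, 293, 529 and 270 CPM in other neuron-rich nuclei of WT, EKO, P301S and P301S/EKO and at 579, 376, 602 and 337 CPM in neuron-rich members. Both Apoe-deficient libraries lay below the other pair. Neuron-poor members gave 16, 12, 35 and 1 UMIs of it. Over all members Eif2s3y, Ddx3y and Uty were lower in both comparisons of Apoe loss, with intervals on the same side of equality. Ddx3y and Uty are also genes of the Y chromosome. The labels do not give the sex of the pooled mice, and the part of a different sex makeup in the ratios was not tested.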
